A study of Mus musculus with 69 samples.

Results

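The libraries described here are those of p53KO-emiRFP cells that were sorted from WT+p53KO mosaic gastruloids at 120 h and at 144 h after aggregation, and the comparison is the step between these time points across all genes. Membership was set by the sample labels alone, which gives 3 libraries at each time and 6 of the 69 libraries in the series. Gastruloids are aggregates of mouse embryonic stem cells that elongate and form trunk tissues in culture after a pulse of Wnt activation. All cells descend from the E14tg2A line. The p53KO-emiRFP clone carries an H2B-emiRFP670 transgene and a +1 frameshift insertion in exon 4 of Trp53, and 25 of its cells were aggregated with 150 WT-mCherry cells, which are wild type for Trp53 and carry H2B-mCherry. The step was set beside those of WT-emiRFP cells from WT+WT gastruloids (150 WT-emiRFP with 150 WT-mCherry cells) and of the WT-mCherry neighbours from the same WT+p53KO gastruloids, with 6 libraries each. WT-emiRFP is the clone from which the p53KO clone was made. The p53KO cells are thus 1 clone, and the effects of clone, genotype, cell ratio and neighbour cannot be told apart in the contrast with WT-emiRFP cells.

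The trunk of the embryo is built from caudal progenitors, which are kept in a proliferative state by Wnt and FGF signals and express T, Cdx and Nkx1-2 genes. Their descendants become either neural tube or presomitic mesoderm, in which Msgn1 and Tbx6 are on and a segmentation clock of Notch, Wnt and FGF feedback genes oscillates. Presomitic cells then form somites, which divide into sclerotome (cartilage and bone of the axial skeleton), dermomyotome and tendon progenitors. Hox genes are switched on in the order of their position in each cluster, so that cells of the thorax and then of the lumbosacral region use genes with progressively higher paralogue numbers. The gastruloid of this age reaches the state of an embryo in which somites are forming.

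Values below are normalized counts, which are raw counts divided by a size factor of each library (the median of its ratios to the geometric mean of all libraries). The 6 libraries had 49469856 to 57733225 counts, within the range of the whole series (26722541 to 72981570). Trp53 had 1506 to 2014 normalized counts in them, against 16814 to 20019 in the WT-emiRFP libraries of both times, and the p53 target Eda2r had 33.9 to 67.9 against 2331 to 2949. The share of counts from mitochondrially encoded genes was 0.719% to 1.15%. Replicate libraries of a time correlated at 0.995 to 0.997 (Pearson r across 14078 genes, log2 scale), and no library of these 6 stood apart. According to the study the replicates come from separate experiments. In bulk RNA a lower value of a cell type's genes can come from fewer cells of that type or from less RNA per cell, and these cannot be told apart.

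Between 120 h and 144 h, genes of caudal progenitors and of presomitic mesoderm mostly fell. Of the genes listed for spinal cord progenitors 15 of 24 rose, of those for somite derivatives 14 of 26 did, and the 5 tested Hox10 and Hox11 genes rose. Of 21121 genes tested in one edgeR fit of all 69 libraries, 2753 were higher at 144 h (13.0%) and 2038 were lower (9.65%) at an adjusted p under 0.05. All counts of list members that rose or fell are to be read beside these shares. With a log2 fold change of at least 1 in size, 795 were higher (3.76%) and 428 were lower (2.03%). The median log2 fold change over all tested genes was 0.02. A fold change is always given here as log2 of 144 h over 120 h.

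**Figure D1:**
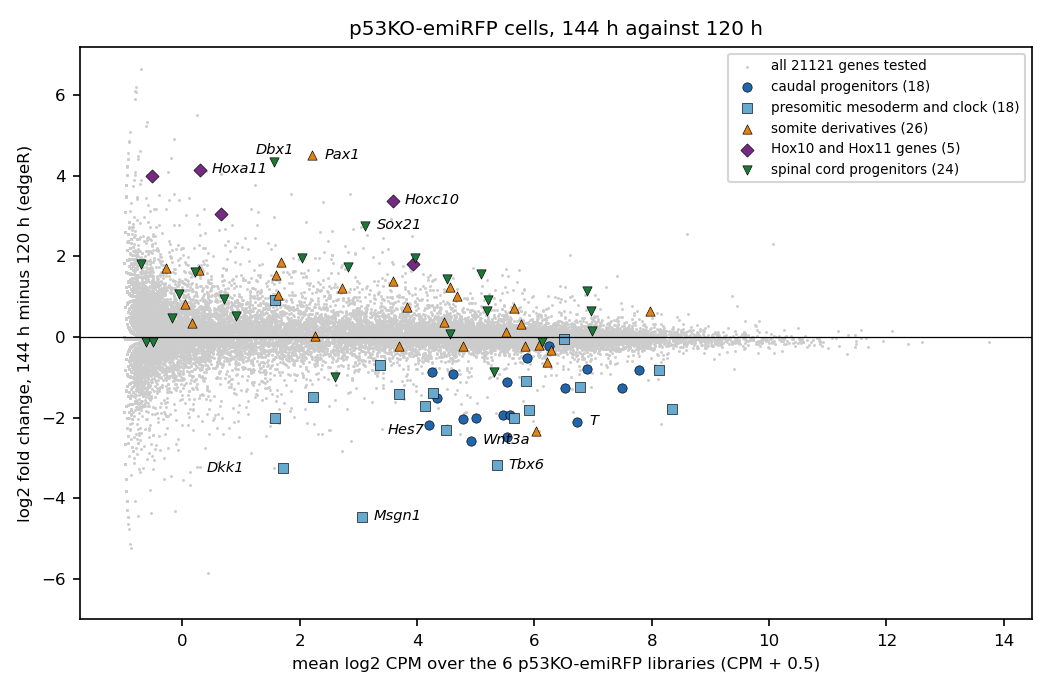
Log2 fold change from 120 h to 144 h in p53KO-emiRFP cells against the mean log2 CPM over the 6 libraries, with 1 grey point per tested gene and coloured points for members of 5 groups of genes. The caudal and presomitic members lie almost all below 0, and the Hox10 and Hox11 genes lie above 1.

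Caudal progenitor genes fell almost as a whole. Of 18 members on the list, all were tested, 17 fell and 0 rose, against 9.65% and 13.0% of all tested genes. Their median log2 fold change was -1.40, and that of all tested genes was 0.02. T, the T-box factor Brachyury that marks the primitive streak and its caudal remnant, had 10686, 12077 and 10225 normalized counts at 120 h and 2674, 2527 and 2499 at 144 h. All 3 libraries at 144 h were thus far under the lowest at 120 h (log2 fold change -2.10 ± 0.19 (SE), edgeR adjusted p = 1.90e-13). Wnt3a, a ligand required to maintain the caudal progenitors, had 3347, 4087 and 3458 normalized counts at 120 h and 568, 541 and 709 at 144 h (log2 fold change -2.58 ± 0.20 (SE), edgeR adjusted p = 1.58e-15). The groups did not overlap for Wnt3a either. Among the other ligands, Fgf8, which keeps cells of the tail bud undifferentiated, went from 4281 ± 489.7 to 1114 ± 22.01 normalized counts (SD, n = 3), and Wnt5b fell by 2.004 on the log2 scale. The homeobox factors Cdx1 (-2.49), Evx1 (-2.18), Cdx2 (-1.28) and Cdx4 (-0.80) fell to unequal degrees. Cyp26a1, which degrades retinoic acid in the tail bud, fell by 1.93 and Sp5, a Wnt target and feedback regulator, fell by 2.03. Gdf11, a ligand of the trunk-to-tail switch, was the member that did not pass the test (-0.22, edgeR adjusted p = 0.369), though it did in a fit of the 6 libraries alone (-0.22, edgeR adjusted p = 0.0254).

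Presomitic mesoderm and clock genes mostly fell too. Of 18 members tested, 16 fell, 1 rose and 1 was not called, with a median of -1.60. Msgn1, the basic helix-loop-helix factor that drives presomitic fate, had 1623, 1669.7 and 1794 normalized counts at 120 h and 65.5, 78.2 and 86.3 at 144 h. This was the largest fall among called genes whose log2 CPM averaged 1 or more over the 6 libraries (log2 fold change -4.47 ± 0.27 (SE), edgeR adjusted p = 3.45e-19). Tbx6, the T-box factor that turns progenitors away from neural fate, had 5277, 6914 and 6185 normalized counts at 120 h and 649, 680.4 and 693 at 144 h, with no overlap between the times (log2 fold change -3.18 ± 0.16 (SE), edgeR adjusted p = 4.64e-23). The Notch ligand Dll1 had 27784, 29575 and 34049.9 normalized counts at 120 h and 9291, 8308 and 8902 at 144 h and thus stayed well detected at 144 h. Its log2 fold change was -1.79 ± 0.15 (SE). The clock genes Hes7 (-2.32), Nrarp (-1.70), Lfng (-1.10) and Dll3 (-1.80) all fell. So did Rspo3, a secreted enhancer of Wnt signalling (-2.02), and the segment border genes Mesp2 (-1.41) and Ripply2 (-1.49), and Mesp1 went from 244 ± 54.2 to 61.00 ± 7.24 normalized counts (SD, n = 3). Ripply1, which ends the Mesp programme in newly formed somites, was the member that rose (0.93, edgeR adjusted p = 3.29e-05), from a low level of 90.8 to 173 normalized counts on average.

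The promoters of 4 of these fallen genes are printed because they carry short matches to sites of the Wnt and Notch pathways or of T itself. The sequences are RefSeq promoters on GRCm38.p6, from 250 bases before to 50 bases after the annotated start, written 5′ to 3′ on the strand of the gene. Capitals mark every match, on either strand, to the Tcf/Lef core CTTTGA, the T-box core AGGTGT or the RBPJ site GTGGGAA, and these motifs were picked after the fold changes were known. Msgn1 lies at chr12:11208899-11209198 on the minus strand, T at chr17:8434173-8434472, Hes7 at chr11:69120203-69120502 and Sp5 at chr2:70474673-70474972, all on the plus strand.
Msgn1: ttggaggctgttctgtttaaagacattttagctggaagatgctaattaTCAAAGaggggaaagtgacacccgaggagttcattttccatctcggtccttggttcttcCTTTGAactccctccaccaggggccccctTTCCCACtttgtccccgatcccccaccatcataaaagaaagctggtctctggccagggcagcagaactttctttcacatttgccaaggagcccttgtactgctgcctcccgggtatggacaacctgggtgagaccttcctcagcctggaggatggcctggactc
T: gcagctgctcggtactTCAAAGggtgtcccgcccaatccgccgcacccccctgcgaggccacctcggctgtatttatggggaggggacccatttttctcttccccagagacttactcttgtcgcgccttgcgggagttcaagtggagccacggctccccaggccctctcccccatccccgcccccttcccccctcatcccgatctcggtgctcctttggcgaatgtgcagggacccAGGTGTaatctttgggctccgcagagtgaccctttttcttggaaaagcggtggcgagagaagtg
Hes7: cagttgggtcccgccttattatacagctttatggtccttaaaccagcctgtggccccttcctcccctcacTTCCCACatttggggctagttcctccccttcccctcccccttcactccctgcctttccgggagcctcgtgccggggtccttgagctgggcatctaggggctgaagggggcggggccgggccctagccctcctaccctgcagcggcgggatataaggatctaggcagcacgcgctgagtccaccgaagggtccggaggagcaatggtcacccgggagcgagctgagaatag
Sp5: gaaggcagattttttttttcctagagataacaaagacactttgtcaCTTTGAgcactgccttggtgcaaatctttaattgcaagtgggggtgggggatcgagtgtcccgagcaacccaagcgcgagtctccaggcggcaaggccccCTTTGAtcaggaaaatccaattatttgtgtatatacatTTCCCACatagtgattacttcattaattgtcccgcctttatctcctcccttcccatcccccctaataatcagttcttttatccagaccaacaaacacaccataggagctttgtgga
The Msgn1 window holds 2 matches to the Tcf/Lef core and 1 to the RBPJ site, that of T 1 Tcf/Lef and 1 T-box match, that of Hes7 1 RBPJ match, and that of Sp5 2 Tcf/Lef matches and 1 RBPJ match. Among 13890 tested genes with a promoter in the RefSeq table, 15.05% held the Tcf/Lef core, 14.3% the T-box core and 7.44% the RBPJ site. The Tcf/Lef core was in 5 of 13 caudal progenitor promoters (T, Wnt5b, Sp5, Sp8 and Greb1) and in 3 of 17 presomitic ones (Msgn1, Mesp1 and Dkk1). The T-box core was in 7 of 13 and 2 of 17 of these promoters, and the RBPJ site in 1 and 3. Among 280 genes that fell by at least 1 on the log2 scale the Tcf/Lef core was in 59, the T-box core in 57 and the RBPJ site in 26, and among 535 that rose by at least 1 in 75, 95 and 36. A match describes letters in these windows and is not a bound site.

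Feedback genes of the pathways that maintain the tail bud fell as well, while a few receptors and inhibitors rose. Of 19 Wnt targets and feedback genes, 13 fell and 3 rose, with a median of -0.80. Dkk1, a secreted Wnt antagonist, had 371, 409 and 390.4 normalized counts at 120 h and 30.1, 55.1 and 37.8 at 144 h (log2 fold change -3.26 ± 0.31 (SE), edgeR adjusted p = 2.92e-12). Axin2, the most widely used Wnt reporter gene, fell from 8348 ± 440.4 to 3561 ± 193 normalized counts (SD, n = 3). Lef1, Apcdd1 and Notum fell by 1.28, 1.13 and 1.26, and the Wnt inhibitor Sfrp2 rose (1.02). Of 20 FGF and ERK genes, 11 fell and 3 rose. Fgf3 (-2.37), Spry4 (-1.87), Fgf15 (-1.77) and Etv4 (-0.91) fell, and the receptors Fgfr2 (1.69) and Fgfr3 (0.97) rose. In the Notch list 7 of 18 fell and 2 rose, among them the endothelial ligand Dll4 (1.49). Notch1 itself fell by 0.83, while the values for Notch2 (0.12) and Notch3 (0.06) did not pass the test.

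Retinoic acid genes moved both ways, with 6 of 15 lower and 4 higher (9.65% and 13.0% of all tested genes). Aldh1a2, the enzyme that makes retinoic acid in somitic mesoderm, had 5762, 8748 and 7509 normalized counts at 120 h and 1518, 1361 and 1504 at 144 h (log2 fold change -2.33 ± 0.16 (SE), edgeR adjusted p = 1.52e-17). Every library at 144 h was thus lower than every library at 120 h. The receptor Rarg (-0.75) fell too. Rarb, a receptor gene that is itself a direct retinoic acid target, rose (1.16, edgeR adjusted p = 6.44e-07), as did Cyp26b1, an enzyme that degrades retinoic acid outside the tail bud (1.51). In the BMP and TGF-beta list 9 of 20 rose and 1 fell, among them Id2 (1.12), Tgfbi (1.42), Tgfb2 (1.16) and Bmp5 (1.72). In the Hedgehog list the co-receptors Gas1 (1.25) and Boc (1.05), the inhibitor Hhip (1.26) and the effector Gli2 (0.59) rose. Of 12 tested members 4 rose and 1 fell, beside the same shares of all tested genes. The receptor and pathway readout Ptch1 did not pass the test (0.06, edgeR adjusted p = 0.704).

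**Figure D2:**
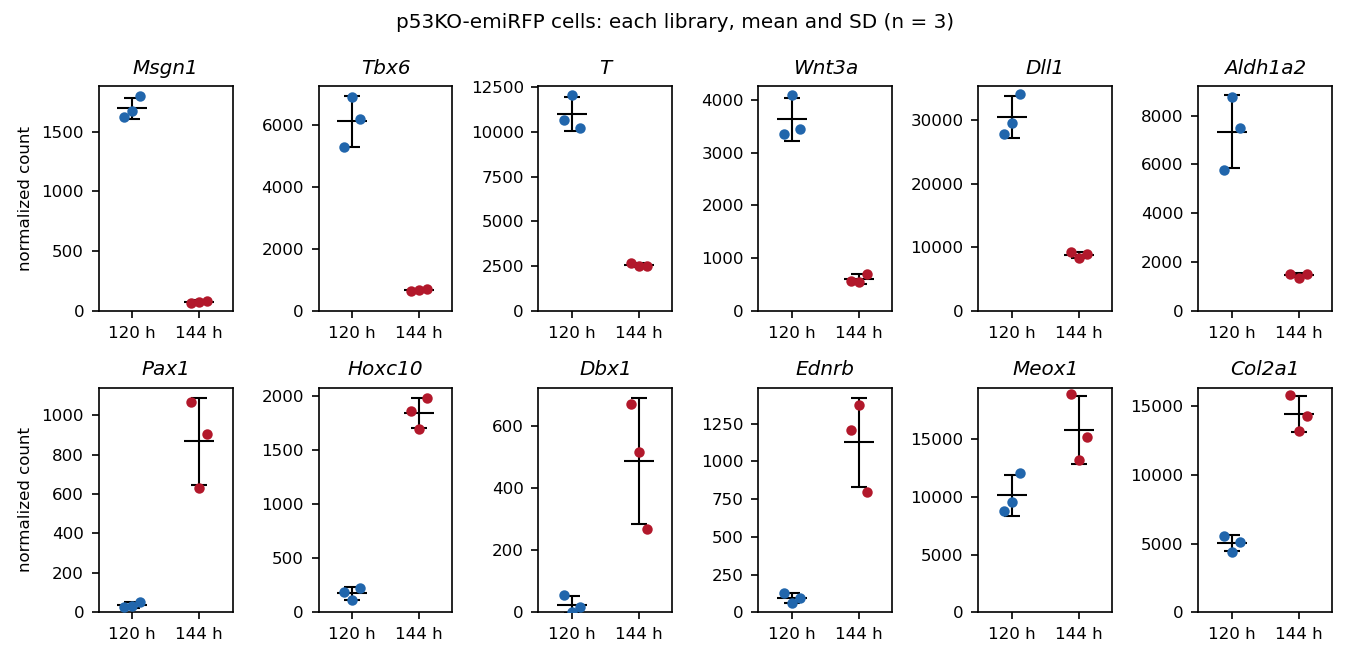
Normalized counts of 12 genes in each of the 6 p53KO-emiRFP libraries, with the mean and SD of the 3 libraries at 120 h and at 144 h (all axes start at 0). Msgn1, Tbx6, T, Wnt3a, Dll1 and Aldh1a2 are lower, and Pax1, Hoxc10, Dbx1, Ednrb, Meox1 and Col2a1 higher, in the libraries at 144 h than at 120 h.

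Hox genes changed by position. All 5 tested genes of paralogue groups 10 and 11 rose, with a median log2 fold change of 3.38. Hoxc10, a lumbar patterning gene, had 192, 113 and 227 normalized counts at 120 h and 1859, 1698 and 1979 at 144 h (log2 fold change 3.38 ± 0.31 (SE), edgeR adjusted p = 5.50e-13). Hoxa10 had 432, 268 and 489 normalized counts at 120 h and 1399.6, 1306 and 1459.6 at 144 h, again without overlap (log2 fold change 1.81 ± 0.23 (SE), edgeR adjusted p = 8.80e-09). Hoxa11 (4.15), Hoxd10 (3.06) and Hoxc11 (4.003) rose from lower levels, and Hoxa11 averaged 5.48 normalized counts at 120 h and 100.1 at 144 h. Hoxc11 had only 4 raw counts over the 3 libraries at 120 h and 72 at 144 h, so its fold change depends on the small counts at 120 h. In groups 5 to 9, 3 of 15 genes rose and 2 fell, with a median of -0.05. Of all tested genes 13.0% rose and 9.65% fell. Of the called genes of groups 5 to 9, Hoxa6 (0.97) and Hoxc8 (-0.95) held without any one library. In groups 1 to 4, 0 of 12 rose and 3 fell, with a median of -0.31, and Hoxb1 (-1.002) and Hoxd1 (-0.80) held. In the fit of the 6 libraries alone 7 of these 12 fell. Of the 5 tested genes of groups 12 and 13, Hoxd13 fell (-0.66), a call lost without replicate 2 or 3 of 120 h, without replicate 2 of 144 h or with no low-count filter (edgeR adjusted p = 0.058), while Hoxa13 (-0.47), Hoxb13 (-0.15) and Hoxc13 (-0.19) did not pass the test. Hoxc12, with 0 raw counts at 120 h and 3 at 144 h, did not pass it either. Hox genes overlap antisense transcripts, and the strand setting of the count is not given in the sources used here, so reads of such pairs may not be separated.

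**Figure D3:**
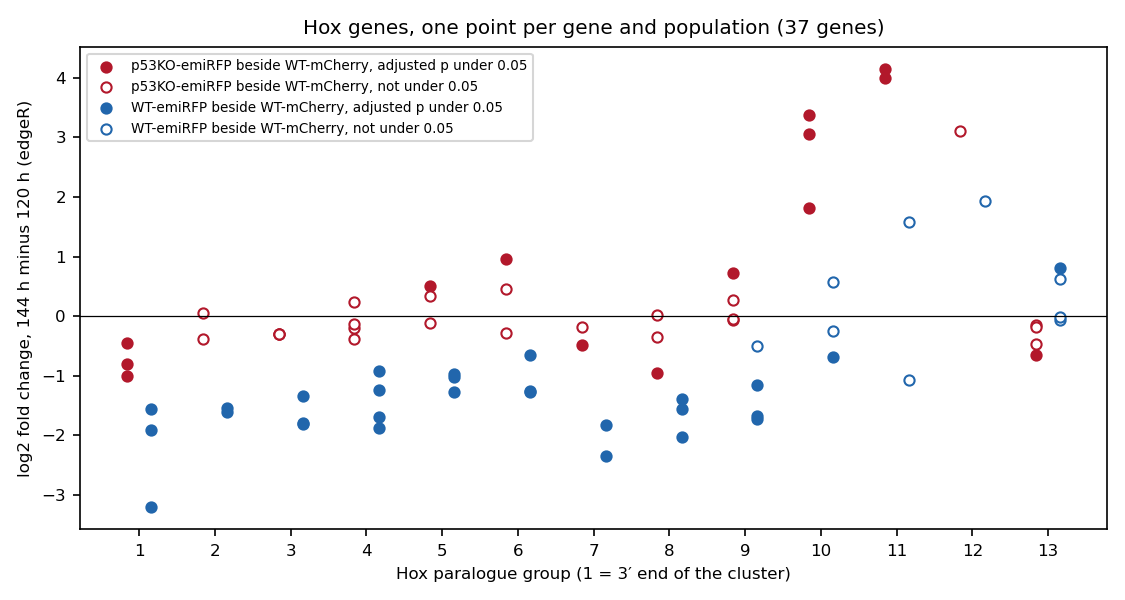
Log2 fold change from 120 h to 144 h of 37 Hox genes by paralogue group, for p53KO-emiRFP cells (red) and WT-emiRFP cells (blue), with filled points for an edgeR adjusted p under 0.05. In p53KO-emiRFP cells the genes of groups 10 and 11 rise by 1.81 to 4.15, while in WT-emiRFP cells most genes of groups 1 to 9 fall.

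Genes of somites and their derivatives rose in part. Of 26 members tested, 14 rose and 2 fell, with a median of 0.69. Pax1, which marks the sclerotome, had 26.6, 34.4 and 53.2 normalized counts at 120 h and 1067, 632 and 902 at 144 h. This was the largest rise under the same limit (log2 fold change 4.51 ± 0.32 (SE), edgeR adjusted p = 1.07e-16). Pax9 (1.53) and Nkx3-2 (1.72), its partners in the sclerotome, rose from low levels, and Nkx3-2 averaged 8.20 normalized counts at 120 h and 27.05 at 144 h. Meox1, a homeobox factor of the whole somite, rose from 10139 ± 1749 to 15800.4 ± 2915 normalized counts (SD, n = 3). Uncx, of the posterior part of each somite, rose by 1.03, Pax7 and Pax3 of the dermomyotome by 1.39 and 0.73, and Scx of tendon progenitors by 1.04. Aldh1a2 and Foxc1 were the members that fell, and the call of Foxc1 (-0.62) was lost without replicate 3 of 120 h (-0.49, edgeR adjusted p = 0.0913). Of 15 skeletal muscle genes tested 3 rose and 3 fell, against 13.0% and 9.65% of all tested genes. Without replicate 2 of 120 h 1 rose. Myod1 and Myog averaged 6.34 and 0.98 normalized counts at 120 h and 3.18 and 2.81 at 144 h.

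Matrix and adhesion genes moved in part. In the collagen and extracellular matrix list 12 of 30 tested members rose and 3 fell, and without replicate 2 of 120 h 7 rose. Col2a1, the collagen of cartilage and of its precursors, had 5583, 4391 and 5113 normalized counts at 120 h and 15781, 13199 and 14304 at 144 h (log2 fold change 1.52 ± 0.14 (SE), edgeR adjusted p = 3.38e-13). Col3a1 (2.10), Col1a1 (1.60), Sparc (1.28) and the crosslinking enzyme Loxl2 (1.10) rose, and Fn1, the gene for fibronectin, fell by 0.40. The call of Fn1 was lost without replicate 3 of 120 h (-0.32) or replicate 1 or 2 of 144 h (-0.31 and -0.41). Among 17 cadherin and epithelial-mesenchymal genes 7 rose, with Snai2 (1.57), Cdh11 (1.26), Vim (1.24) and Cdh6 (0.98) the largest, and Snai1 fell (-1.38). Cdh2, the neural and mesodermal cadherin, did not pass the test (0.13, edgeR adjusted p = 0.604).

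Of 24 spinal cord progenitor genes tested, 15 rose and 2 fell, with a median of 0.93. Dbx1, a homeobox factor of the interneuron progenitor domains of the middle of the cord, had 55.2, 1.81 and 17.1 normalized counts at 120 h and 674, 519 and 271 at 144 h. The 3 libraries at 120 h themselves differed widely for Dbx1, yet all were below those at 144 h (log2 fold change 4.34 ± 0.43 (SE), edgeR adjusted p = 1.16e-11). Sox21, a neural progenitor factor, had 224, 143 and 104 normalized counts at 120 h and 1147, 1173 and 847 at 144 h (log2 fold change 2.75 ± 0.24 (SE), edgeR adjusted p = 5.14e-14). Pax6 (1.96), Irx5 (1.74), Irx3 (1.57), Sox1 (1.45) and Sox2 (0.65) rose, whereas Gbx2 (-0.88) and Hes5 (-0.996) fell. The call of Hes5 was lost without replicate 2 of 120 h (-0.87) or replicate 3 of 144 h (-0.79), and with DESeq2 (adjusted p = 0.057).

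Among 33 genes of neurogenesis and neurons 11 rose and 6 fell, with a median of 0.25. The proneural factors Neurog1 (3.17) and Nhlh1 (2.11) rose from averages of 3.80 and 7.37 to 35.5 and 32.2 normalized counts. Mnx1 (-1.22), Isl1 (-0.83) and Gad1 (-1.53), genes that differentiated motor neurons or interneurons use, fell. The pan-neuronal tubulin Tubb3 did not pass the test (0.25, edgeR adjusted p = 0.261). In the neural crest list 8 of 15 tested genes rose and 2 fell. Ednrb, the endothelin receptor of migrating crest, had 127, 65.2 and 95.3 normalized counts at 120 h and 1207, 1373 and 799 at 144 h (log2 fold change 3.56 ± 0.22 (SE), edgeR adjusted p = 4.70e-19). Ets1 (1.66) and Tfap2b (2.81) rose and Msx1 (-1.49) and Dlx5 (-1.58) fell. Sox10, the defining factor of crest, averaged 17.2 and 22.6 normalized counts and did not pass the test (0.36, edgeR adjusted p = 0.56). Foxd3, another crest factor on the list, had 0 raw counts at both times and was not tested.

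Endothelial and blood genes were low and, counted gene by gene, mostly higher at 144 h. Of 24 haematoendothelial genes tested, 14 rose and 1 fell. The summed level of the list did not rise. It was 4598 ± 207 normalized counts at 120 h and 4203 ± 284 at 144 h (SD, n = 3). The libraries of both times overlapped in it, with a lowest sum of 4420 at 120 h and a highest of 4529 at 144 h. Kdr, the VEGF receptor of endothelial precursors, had 131, 230.1 and 133 normalized counts at 120 h and 563, 494 and 662 at 144 h (log2 fold change 1.79 ± 0.16 (SE), edgeR adjusted p = 5.69e-13). Emcn, Tek and Sox18 of endothelium rose from averages of 1.92, 23.04 and 16.8 to 45.1, 70.3 and 51.1 normalized counts. The embryonic globins Hbb-bh1 and Hba-x, both among the 14, had 0 raw counts in the libraries at 120 h. At 144 h Hbb-bh1 had 18, 4 and 5 raw counts (27 over the 3 libraries) and Hba-x 9, 15 and 15 (39). DESeq2 called neither (adjusted p = 0.768 and 0.184). The Hbb-bh1 call was also lost without any 1 library of 120 h or without replicate 1 of 144 h. Lmo2, a blood and endothelial cofactor, was the member that fell (-2.18, edgeR adjusted p = 2.00e-16). In the intermediate mesoderm list 6 of 13 fell, led by Lhx1 (-2.27), Cited1 (-1.66) and Pax2 (-1.18), and 4 rose, led by Wt1 (1.93). Of the lateral plate and cardiac list 5 of 22 rose and 1 fell (13.0% and 9.65% of all tested genes), and 3 rose without replicate 1 of 120 h or replicate 2 or 3 of 144 h. The cardiac factor Nkx2-5 averaged 22.6 and 18.9 normalized counts. In the endoderm list 6 of 20 rose and 0 fell, beside the same shares of all tested genes, among them Foxa1 (0.84), and 3 rose without replicate 2 of 144 h. The endoderm factors Foxa2 (0.91, edgeR adjusted p = 0.102) and Sox17 (0.86, edgeR adjusted p = 0.0879) did not pass the test. Both did with the replicate block (edgeR adjusted p = 0.029 and 0.0104) and with no low-count filter (1.28e-04 and 1.74e-04), Foxa2 without replicate 2 of 120 h (1.36, edgeR adjusted p = 0.0406) and Sox17 in the fit of the 6 libraries alone (0.86, edgeR adjusted p = 0.0156). Of 10 notochord genes 1 rose and 1 fell, again beside those shares. Noto and Shh averaged 11.3 and 6.42 normalized counts at 120 h and 3.52 and 9.58 at 144 h. Noto did not pass the test (-1.71, edgeR adjusted p = 0.0975). It did with the replicate block (-1.67, edgeR adjusted p = 0.0237) and with no low-count filter (-1.71, edgeR adjusted p = 0.0100). Of 19 surface ectoderm and extraembryonic genes 6 rose and 1 fell, with Krt7 (2.78) rising from an average of 33.2 normalized counts and Grhl3 (-0.91) the fall.

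Genes of pluripotent and germ cells were still detected. Of 31 pluripotency genes 8 rose and 6 fell. Nanog had 2377, 2572 and 2594 normalized counts at 120 h and 3179.9, 3774 and 4819 at 144 h, so that all libraries at 144 h were above those at 120 h (log2 fold change 0.64 ± 0.09 (SE), edgeR adjusted p = 7.17e-08). Tfcp2l1 (0.66) and Zfp42 (0.47), which are active in naive cells, also rose, and Pou5f1 did not pass the test (-0.15, edgeR adjusted p = 0.474). The falls were in Lefty2 (-1.77), Fgf4 (-0.91), Dnmt3b (-0.67), Lefty1 (-0.64), Lin28a (-0.42) and Sall4 (-0.29), several of which caudal progenitors also express. In the primordial germ cell list 7 of 12 rose and Ifitm1 fell. Prdm1, the gene for Blimp1, rose from 258 ± 40.1 to 918 ± 101 normalized counts (SD, n = 3), Dazl rose by 1.35 and Prdm14 by 1.15, while Nanos3 did not pass the test (-0.20, edgeR adjusted p = 0.624).

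**Figure D4:**
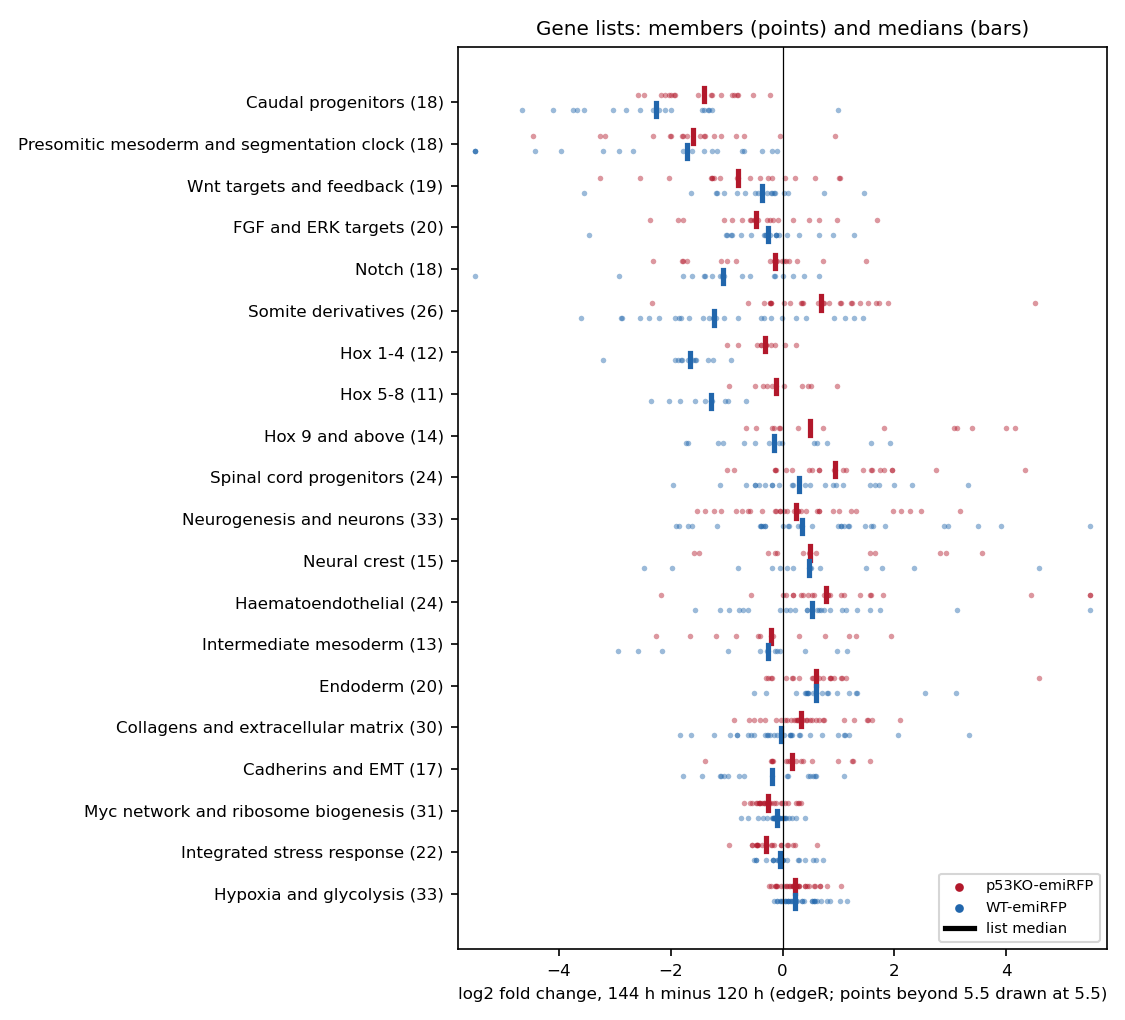
Log2 fold change from 120 h to 144 h of the members of 20 gene lists (points) and the list medians (bars), for p53KO-emiRFP cells (red) and WT-emiRFP cells (blue). Numbers of tested members are in brackets. In p53KO-emiRFP cells the caudal and presomitic medians lie at -1.40 and -1.60, and the somite medians of both populations lie on opposite sides of 0.

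Growth and biosynthesis genes moved by small amounts with narrow spread. In the Myc and ribosome biogenesis list 22 of 31 genes fell and 3 rose, with a median of -0.27. Mycn, the Myc gene of embryonic progenitors, had 9217, 9043 and 10015 normalized counts at 120 h and 6117, 5940.0 and 5500.0 at 144 h, without overlap (log2 fold change -0.69 ± 0.08 (SE), edgeR adjusted p = 4.80e-10). Srm (-0.58), Rrp12 (-0.55) and Nop2 (-0.45) fell, and Myc did not pass the test (0.10, edgeR adjusted p = 0.509). In the integrated stress response list 13 of 22 fell and 0 rose, with a median of -0.29. Chac1, a glutathione-degrading target of the pathway, had 1817, 1355 and 1705 normalized counts at 120 h and 841, 882 and 794 at 144 h (log2 fold change -0.95 ± 0.20 (SE), edgeR adjusted p = 1.47e-04). The one-carbon enzyme Mthfd2 (-0.55) and the amino acid transporter Slc7a5 (-0.55) fell with the factor Atf4 itself (-0.29), whose call was lost without replicate 1 of 120 h (-0.21, edgeR adjusted p = 0.0588), whereas Atf3 (0.09, edgeR adjusted p = 0.789) and Ddit3 (0.08, edgeR adjusted p = 0.808) did not pass the test.

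In the hypoxia and glycolysis list 14 of 33 rose and 0 fell, against 13.0% and 9.65% of all tested genes, with a median of 0.23. Ndrg1 (1.05), Pfkp (0.80), Ero1l (0.68) and P4ha1 (0.56) were the largest. Hif1a (0.03, edgeR adjusted p = 0.894) and Slc2a1 (-0.11, edgeR adjusted p = 0.45) did not pass the test. Of 25 cholesterol and fatty acid genes 2 rose and 0 fell, beside the same shares of all tested genes. Of 13 mitochondrially encoded genes 0 passed the test in either direction.

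Of 26 G1/S and replication genes 10 fell and 1 rose (E2f2), with a median of -0.14, and Mcm2 went from 27003 ± 77.97 to 23247 ± 675 normalized counts (SD, n = 3). Without replicate 1 of 120 h or replicate 3 of 144 h, 6 of them fell. Of 25 G2/M genes 7 rose and 0 fell, with a median of 0.11, among them Nusap1 (0.40) and Top2a (0.31). Of 14 CDK inhibitors and genes of cell cycle exit 7 rose and 3 fell, with a median of 0.32. Cdkn1a, the gene for p21, had 559, 612 and 453 normalized counts at 120 h and 224, 206 and 205 at 144 h (log2 fold change -1.35 ± 0.14 (SE), edgeR adjusted p = 2.43e-11). Btg2 fell by 1.32, whereas Cdkn1c, the imprinted gene for p57, rose from 1627 ± 88.7 to 4161 ± 202 normalized counts (SD, n = 3). Other imprinted growth genes that rose were Dlk1 (1.22), Mest (1.19), Peg3 (1.01) and Plagl1 (0.98), 7 of 21 in all, and Phlda2 was the one that fell (-1.60).

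In the p53 pathway list 6 of 29 genes rose and 5 fell, against 13.0% and 9.65% of all tested genes, with a median of 0.008. The rises held the kinase gene Plk2 (1.44) and Trp53inp1 (0.94), and the falls held Cdkn1a, Phlda3 (-0.96) and Sesn2 (-0.46). Bax (-0.03, edgeR adjusted p = 0.898) and Ccng1 (0.01, edgeR adjusted p = 0.974) did not pass the test. In the Bcl2 and apoptosis list 4 of 19 tested genes rose and 1 fell, beside the same shares of all tested genes. Bmf, a BH3-only sensitizer, rose from 3144 ± 332 to 6089 ± 504 normalized counts (SD, n = 3), with Mcl1 (0.26) and Bcl2l11 (0.28) by smaller amounts, and Bid fell by 0.78.

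Beyond the lists, the largest rises and falls held several genes of other kinds. They are ranked among called genes whose log2 CPM averaged 1 or more over the 6 libraries, which leaves out genes with lower counts. Among the 15 largest rises were Sema3d, a guidance cue (3.78), the matrix genes Fmod (3.55) and Adamts12 (3.11), the nuclear receptor Nr2f1 (2.93), the secreted factor Ndnf (3.36), the fibroblast protease Fap (2.84), the forkhead factor Foxd2 (2.73), Fam181a (3.19) and the imprinted zinc finger gene Zim1 (2.69). Nr2f1 had 181, 179 and 239.8 normalized counts at 120 h and 1576, 1548 and 1445 at 144 h, a narrow range at both times. The falls held Mixl1, a primitive streak homeobox gene (-3.26), Aplnr, the apelin receptor of nascent mesoderm (-2.40), Alox15 (-2.57), Ptgds (-2.89), Nfam1 (-2.83), the potassium channel Kcnk3 (-2.40), the adhesion receptor Adgrd1 (-2.40) and the protocadherin Pcdh19 (-2.33). Mixl1 had 307, 385 and 327 normalized counts at 120 h and 31.01, 42.1 and 33.9 at 144 h, so that the times did not overlap. Foxd2 lies beside an antisense gene, and reads of that pair may not be separated.

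The step of p53KO-emiRFP cells was then tested against that of WT-emiRFP cells in the same fit, as a difference of the 2 log2 fold changes. The difference was positive for 2173 genes (10.3% of those tested) and negative for 1400 (6.63%). With the replicate number as a block within each time point, a fit added after seeing the data, the counts were 3289 and 2421. For comparison, WT-emiRFP cells changed in 3879 genes upwards (18.4%) and 3274 downwards (15.5%). The somite derivative list differed widely. Its median was 0.69 in p53KO-emiRFP cells but -1.22 for WT-emiRFP, and 21 of 26 members had a positive difference that passed the test and 0 a negative one. Outside the list, Foxd2 went from 151 ± 57.6 to 1001 ± 165 normalized counts (SD, n = 3) in p53KO-emiRFP cells but from 381 ± 130.3 to 118 ± 40.9 in the WT-emiRFP population (difference 4.42 ± 0.41 SE, edgeR adjusted p = 3.06e-12). Of the list, Uncx differed by 3.57 ± 0.36, Foxc2 by 3.27 ± 0.34 and Meox1 by 2.56 ± 0.23 (edgeR adjusted p = 4.52e-11, 1.05e-10 and 2.10e-12). Fmod, a small matrix proteoglycan outside the list, differed by 4.94 ± 0.60 (edgeR adjusted p = 1.69e-07).

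Hox genes of groups 1 to 8 differed in the same way. Of 12 tested genes of groups 1 to 4 and of 11 of groups 5 to 8, 11 in each had a positive difference that passed the test, while Hoxa4 did not. Their medians were -0.31 and -0.11 in p53KO-emiRFP cells and -1.65 and -1.28 in WT-emiRFP cells. Hoxc10 differed by 3.63 ± 0.44 (edgeR adjusted p = 6.47e-09), and in WT-emiRFP cells it went from 141 ± 64.6 to 118 ± 34.9 normalized counts. In the caudal list both populations fell, with medians of -1.40 and -2.27, and 10 members had a positive difference and Fgf4 a negative one. In the presomitic list 7 of 18 had a positive difference and 1 a negative one. Cdx2 had a log2 fold change of -1.28 in p53KO-emiRFP cells, against -4.10 in the WT-emiRFP population (edgeR adjusted p of the difference = 1.29e-12). At 120 h, WT-emiRFP cells had 4245 ± 532 normalized counts of Cdx2 against 13989.5 ± 984 in p53KO-emiRFP cells (SD, n = 3).

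Under the criteria for named genes, which ask for a mean log2 CPM of at least 1, the widest positive fitted difference was at the segment border gene Ripply2. It had 294, 371 and 410 raw counts at 120 h and 159, 119 and 121 at 144 h in p53KO-emiRFP cells. In WT-emiRFP cells it had 132, 96 and 86 and then 0, 2 and 0 (edgeR adjusted p of the difference = 5.07e-09). Its fitted difference rests on those 2 counts at 144 h and is not given. Cer1, a secreted antagonist expressed in forming somites, and Myocd, a muscle coactivator, also differed (4.92 ± 0.42 and 4.24 ± 0.49, edgeR adjusted p = 3.64e-13 and 1.91e-09), and in WT-emiRFP cells at 144 h they had 20 and 13 raw counts over the 3 libraries. Under the same criteria, negative differences were led by Dkk1 (-3.07 ± 0.47), Nfam1 (-2.92 ± 0.29), Adgrd1 (-2.79 ± 0.31), Phlda2 (-2.56 ± 0.26) and Rnf213 (-2.34 ± 0.28), with edgeR adjusted p of 1.25e-06, 2.49e-11, 5.99e-10, 3.18e-11 and 4.66e-09. Rnf213, a large ubiquitin ligase, had 8861, 8709 and 11458 normalized counts at 120 h and 2123, 2655 and 3168 at 144 h in p53KO-emiRFP cells, lower in every library at 144 h. In WT-emiRFP cells it went from 2409.9 ± 284 to 3344 ± 291. In the pluripotency list 13 of 31 members had a negative difference and 2 a positive one, and in the integrated stress response list 8 of 22 had a negative one and 0 a positive one.

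Set against the WT-mCherry neighbours of the same gastruloids, the difference was positive for 2701 genes (12.8%) and negative for 1346 (6.37%), and with the same block for 4096 and 2308. The 2 contrasts share the p53KO-emiRFP libraries and are given side by side only. Of the somite derivative genes 19 of 26 had a positive difference and 0 a negative one, and of the Hox genes of groups 1 to 4 and 5 to 8 11 in each did. Caudal and presomitic genes each had 13 of 18 positive differences, with 2 and 1 negative ones. In the integrated stress response list 4 of 22 had a positive difference and 1 a negative one. Hoxc10 rose by 1.52 in the neighbours, which is less than in p53KO-emiRFP cells by 1.86 ± 0.42 (SE, edgeR adjusted p = 8.40e-04), and Meox1 changed by -1.28 in them (difference 1.92 ± 0.23, edgeR adjusted p = 1.89e-08). H2bc14, a histone gene whose counts are high in libraries of the emiRFP clones, was used as a measure of emiRFP RNA in the neighbour libraries. It was at 7.11%, 3.35% and 6.23% of the p53KO-emiRFP mean in those of 120 h and at 17.5%, 2.46% and 8.61% in those of 144 h. H2bc7, another histone gene, was at 7.28%, 3.36% and 5.77% at 120 h and at 12.1%, 2.08% and 8.41% at 144 h. What the WT-mCherry cells express of these genes themselves was not subtracted. The part of carried-over emiRFP RNA in the differences was not tested.

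**Figure D5:**
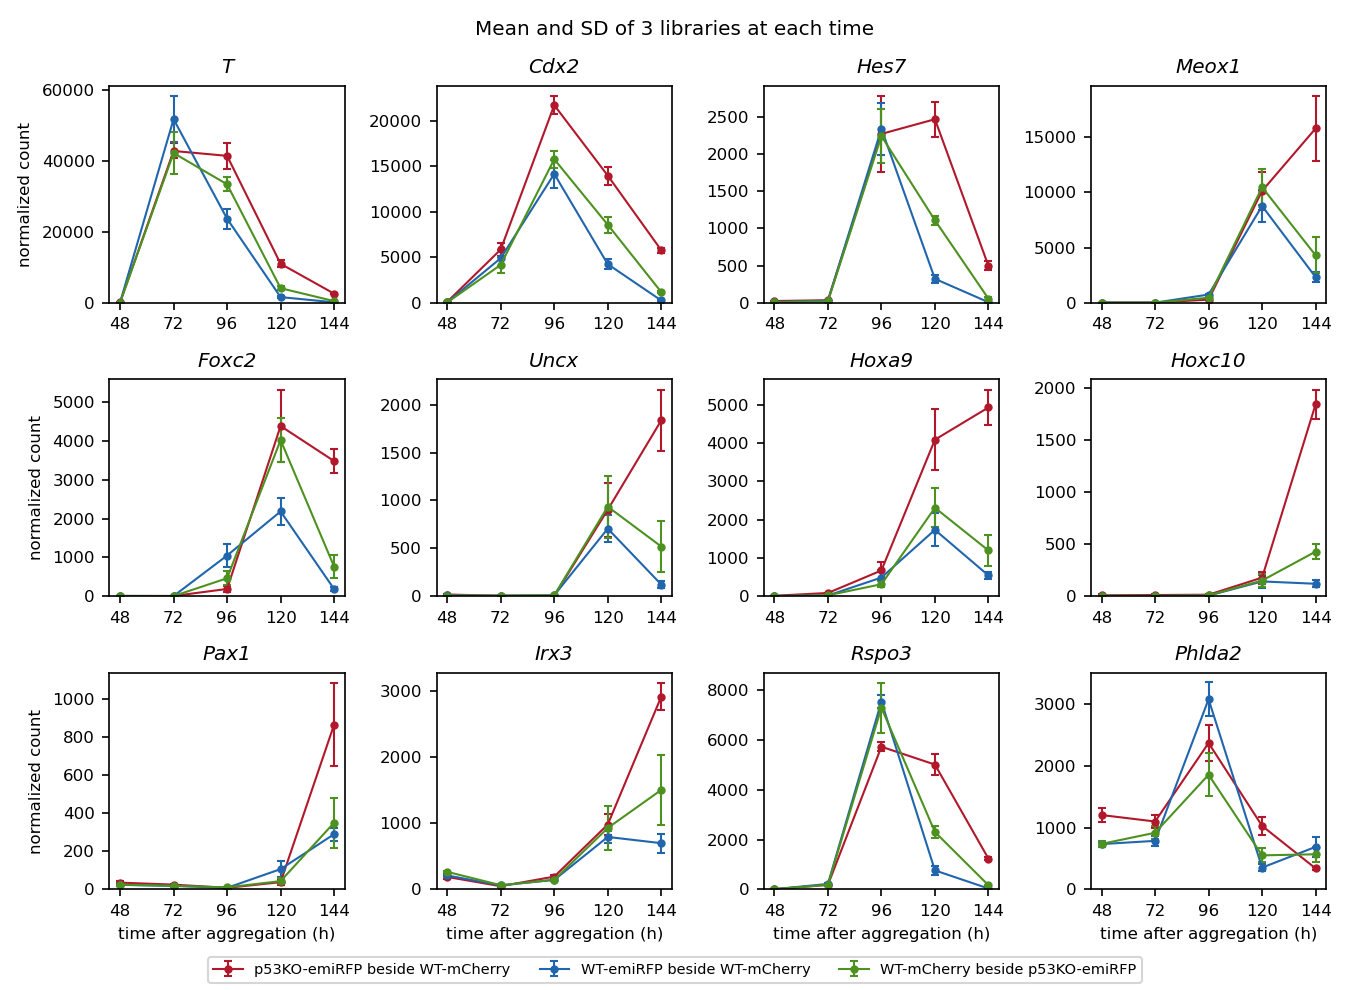
Normalized counts of 12 genes from 48 h to 144 h in p53KO-emiRFP cells (red), WT-emiRFP cells (blue) and WT-mCherry neighbours of p53KO-emiRFP cells (green), as mean and SD of 3 libraries. T, Cdx2, Hes7 and Rspo3 are lower at 144 h than at 120 h in each population, while Meox1, Uncx and Irx3 are higher at 144 h than at 120 h in p53KO-emiRFP cells and not in WT-emiRFP cells.

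Over the whole time course, the levels at 144 h in p53KO-emiRFP cells can be placed against earlier times. T reached 42853 ± 2119 normalized counts at 72 h in p53KO-emiRFP cells (SD, n = 3), against 51830.5 ± 6454 for WT-emiRFP. It still stood at 2567 ± 94.1 in p53KO-emiRFP cells at 144 h, above the 1589.8 ± 239 of WT-emiRFP cells at 120 h. Hes7 had 495 ± 60.5 at 144 h in p53KO-emiRFP cells, against 321 ± 58.2 at 120 h and 6.96 ± 0.76 at 144 h in WT-emiRFP cells. Meox1 was at 283 ± 51.99 at 96 h, 10139 ± 1749 at 120 h and 15800.4 ± 2915 at 144 h in p53KO-emiRFP cells. In WT-emiRFP cells Meox1 stood at 8770.1 ± 1484 at 120 h and 2323 ± 479 at 144 h. Hoxc10 averaged 7.36 ± 8.33, 10.04 ± 8.99 and 12.98 ± 8.75 normalized counts at 48, 72 and 96 h in p53KO-emiRFP cells (SD, n = 3), so that its rise took place after those times. These levels are descriptions, and differences between populations at one time were not tested here.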

How the data were processed

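RNA was sequenced from fluorescence-sorted cells of mouse gastruloids. The authors trimmed reads with Trim Galore 0.6.7, mapped them to GRCm38.p6 with STAR 2.7.11b and deposited whole-number counts of uniquely mapped reads for 55367 gene symbols in 69 libraries, and no column belonged to another sample. The library preparation was stranded, and the strand setting of the counts is not given in the sources used here. Groups and replicates follow the sample labels.

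Genes with low counts were removed with filterByExpr by group, which left 21121. Counts were scaled by median-of-ratios size factors and fitted for all 69 libraries in one model without a block (edgeR 4.0.16 quasi-likelihood test in R 4.3.3, Benjamini-Hochberg adjustment, threshold 0.05). The contrasts were 144 h minus 120 h in p53KO-emiRFP cells, and that change minus the change of WT-emiRFP cells or of WT-mCherry neighbours. Each SE was worked back from the test, as the absolute log2 fold change divided by the square root of the F statistic. It is thus not independent of the adjusted p beside it. The 6 libraries held 49469856 to 57733225 counts each, and genes with few counts have wide errors. Alternatives were TMM, no filter, a replicate block, only the groups compared, DESeq2 1.42.0, a minimum fold change and leaving out each library.

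Deviations from the group means, over genes averaging at least 50 normalized counts, correlated at 0.118 to 0.524 between same-numbered p53KO and WT libraries of the same time. The study describes separate experiments. The numbers were therefore taken to pair libraries within a time point, and a block within each time point was added for the contrasts with WT cells after seeing the data.

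Named genes were the 15 largest rises and falls with an adjusted p under 0.05, a mean log2 CPM over the 6 libraries from 1 upwards and 1 direction in all 3 same-numbered pairs, leaving out symbols of predicted genes, the 5 widest differences each way from WT-emiRFP cells by the same criteria, and members of 37 gene lists. The lists and genes were chosen with earlier results of these data known, and some list members are not reported here. Hoxc11, the globins and the genes whose calls changed without a library were added after their values were seen.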

Additional observations from a re-analysis of the deposited data

Results flagged for a closer look

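Listed here are the 15 genes whose difference from WT-emiRFP cells is given in the text. Each passed the edgeR test of the difference of the changes from 120 h to 144 h (adjusted p under 0.05, 3 libraries per group and time). Passing this test was the rule for entry, so it is not a result of its own. The 5 widest differences each way were picked with the same test. Other genes described also pass this test, and the count over all genes is given with that contrast. Groups of 3 were not tested for single outlying libraries. In the somite derivative genes the difference was positive, at 3.57 for Uncx, 3.27 for Foxc2 and 2.56 for Meox1 on the log2 scale. It was also positive for Fmod (4.94), Foxd2 (4.42), Cer1 (4.92), Myocd (4.24), Hoxc10 (3.63) and the caudal factor Cdx2 (2.82). Ripply2 differed with an adjusted p of 5.07e-09, and its fold change rests on few counts in WT-emiRFP cells at 144 h. The difference was negative for Dkk1 (-3.07), Nfam1 (-2.92), Adgrd1 (-2.79), Phlda2 (-2.56) and Rnf213 (-2.34). The part of clone, genotype, cell ratio and neighbours in these differences cannot be told apart.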

How the results depend on the processing

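Under TMM scaling, no low-count filter, DESeq2 and the fit of the compared groups alone, each count of genes called stayed within 1.5 times its value in the report. The genes called were not all the same. For the step, the contrast with WT-emiRFP cells and that with the neighbours, 77.4%, 76.9% and 74.2% of the calls were kept with no filter. In the compared groups alone 90.1%, 89.1% and 79.1% were kept. TMM and DESeq2 kept 94.9% to 97.8%. Asking also for a log2 fold change of at least 1 in size left 795 genes higher and 428 lower for the step of p53KO-emiRFP cells, 821 positive and 369 negative differences from WT-emiRFP cells, and 655 and 336 from the WT-mCherry neighbours, by construction. Leaving out 1 library at a time gave 2167 to 2384 higher and 1586 to 1779 lower genes for the step, 1742 to 2172 and 1038 to 1312 for the contrast with WT-emiRFP cells, and 2093 to 2693 and 909 to 1286 for that with the neighbours, with fewer samples in each fit. The block within each time point raised the differences from WT-emiRFP cells to 3289 positive and 2421 negative, and those from the neighbours to 4096 and 2308. Same-numbered deviations at 120 h and 144 h correlated at 0.0315 to 0.0950 in p53KO-emiRFP cells, 0.140 to 0.400 in WT-emiRFP cells and 0.0698 to 0.540 in the neighbours, so the numbers were not taken to pair p53KO-emiRFP libraries across times. The replicate block over all libraries gave 3289 higher and 2473 lower genes for the step, 2749 and 1897 for the contrast with WT-emiRFP cells, and 3497 and 1806 for that with the neighbours, and within the 6 libraries compared 3033 and 2215. Of 194 called results for single genes, 185 kept their call and direction under the alternatives other than the fold limit, and 0 of their 2324 alternative values turned direction. The fold limit takes the call from 58 of the 194, by construction. Without the low-count filter 7 of 12 Hox genes of groups 1 to 4 and 5 of 26 G1/S genes fell, and in the fit of the 6 libraries alone 11 of 21 imprinted genes rose. The cause of these shifts was not tested. Depth limits the genes with few counts, such as Hoxc11 and the globins.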
